A study of Mus musculus with 219 samples.

Results

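The 10 genes described here, Gata6, Gata4, Sox17, Sox7, Foxa2, Pdgfra, Dab2, Cubn, Lama1 and Col4a1, are markers and products of the primitive endoderm. They were chosen by symbol, each matched 1 row in both count tables, and they are 10 of the 32285 genes counted. The libraries came from mouse embryos made by intracytoplasmic sperm injection (ICSI), in which B6C3F1 oocytes received sperm of CD1 males, so every embryo has the genotype B6C3F1xCD1. The sperm head was placed opposite the meiotic spindle (contralateral), beside it (ipsilateral, named isolateral in the sample labels) or midway between these poles (equatorial). At the 2-cell stage some embryos were bisected. Their blastomeres were either lysed singly or cultured singly, so that each pair of sister blastomeres gave a pair of monozygotic twin blastocysts, whereas intact blastocysts came from embryos that had not been bisected. The data used were 110 blastomeres of 55 embryos, 38 twin blastocysts of 19 pairs (6 contralateral, 7 ipsilateral and 6 equatorial) and 31 intact blastocysts (11 contralateral, 8 ipsilateral and 12 equatorial). The labels place the intact and the twin blastocysts in rows of the same plate that hardly overlap, so bisection and plate position cannot be told apart.

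The primitive endoderm is the layer of the inner cell mass that comes to face the blastocyst cavity, and it later forms the endoderm of the yolk sac. It separates from the epiblast under Fgf4, made by epiblast cells and received through Fgfr1 and Fgfr2, which signals through the Erk kinases. Gata6 is the earliest of its regulators, followed by Sox17, Gata4 and Sox7, while Foxa2 belongs to the endoderm programme in general. Pdgfra is a growth factor receptor that marks the lineage. Dab2 is an adaptor for endocytosis, and Cubn is an endocytic receptor that works with Amn and Lrp2. Lama1, a laminin chain, and Col4a1, a type IV collagen chain, are parts of the basement membrane that the lineage lays down.

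The genes lie on 8 chromosomes of GRCm38 in the GENCODE M21 annotation, with Gata4 and Sox7 both on chromosome 14 (63198922 to 63271692 and 63943673 to 63950732) and Foxa2 and Cubn both on chromosome 2. Counting was without strand, so reads cannot be told apart where a feature annotated on the other strand overlaps a member, which was the case for Gata6, Sox17, Pdgfra, Dab2, Cubn and Col4a1. Col4a1 (chromosome 8, 11198423 to 11312826, minus strand) starts head to head with Col4a2, the gene of its partner chain, and the 2 genes share only 22 bases at their starts. The 30 bases of chr8:11312801-11312830 of GRCm38.p6, plus strand, from RefSeq are shown since both genes are followed below, with the shared bases in capitals.
Col4a1 and Col4a2 start: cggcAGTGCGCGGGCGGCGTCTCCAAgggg
Upstream windows of 250 bases were read for 5 members, with 8 annotated starts among them. Gata6 was not among these 5. Only the letters AGATAA and TGATAA, which are forms of the core bound by GATA factors, were searched, on both strands. Of all 32851 windows of this length, 16.6% held at least 1 of them. Among these 5 members they were found upstream of 1 start of Foxa2 and 1 start of Dab2, and not in the windows of Col4a1, Cubn and Pdgfra. The Dab2 window, chr15:6299539-6299788 on the plus strand, is shown since Dab2 departs from the other members in the results below. The match, in capitals, begins 179 bases before the start.
Dab2 upstream: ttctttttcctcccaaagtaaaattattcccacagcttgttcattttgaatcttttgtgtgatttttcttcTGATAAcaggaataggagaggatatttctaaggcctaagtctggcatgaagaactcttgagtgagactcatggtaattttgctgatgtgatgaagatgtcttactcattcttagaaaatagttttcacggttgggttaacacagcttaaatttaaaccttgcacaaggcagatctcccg
A match is a description of the sequence, not a bound site.

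Total counts per library ranged from 360474 to 2100561 in blastomeres, from 713410 to 2161062 in twins and from 234099 to 1254428 in intact blastocysts. Fewer than 10000 genes were detected in 7 intact blastocysts, of which 4 were contralateral and 3 equatorial, and in no twin. The summed level of 10 trophectoderm genes was 4323 to 8454 CPM in intact and 3597 to 5379 CPM in twin blastocysts. CPM are counts of a gene scaled to a fixed library total. In blastomeres these genes summed to 67.4 to 425 CPM, below every blastocyst. The summed level of 10 epiblast genes was 32.1 to 650 CPM (median 223) in intact and 321 to 1020 CPM (median 620) in twin blastocysts. In blastomeres it was 45.5 to 453 CPM (median 199), which overlapped with both kinds of blastocyst. The epiblast sum therefore does not show that each blastocyst held an epiblast. The 6 cumulus cell genes summed to at most 4.57 CPM in blastocysts. The summed level of the 10 members was 565 to 1952 CPM in intact and 764 to 1552 CPM in twin blastocysts. These are whole embryos, so fewer cells of a type and less RNA per cell cannot be told apart.

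Levels of the genes were set in order by TPM, which also divides by exon length. In intact blastocysts Col4a1 (median 135 TPM) and Dab2 (130 TPM) stood first, followed by Lama1 (78.0 TPM) and Gata6 (76.8 TPM). Sox17 (22.6 TPM), Sox7 (18.1 TPM), Cubn (16.6 TPM), Gata4 (13.99 TPM), Foxa2 (13.98 TPM) and Pdgfra (7.61 TPM) came after them, and each of these 6 had a range between quartiles that overlapped with that of its neighbour. The steps that exceeded the spread were those from Dab2 to Lama1, higher in 29 of 31 blastocysts, and from Gata6 to Sox17, higher in 30 of 31. In twins the order differed. Dab2 (167 TPM) and Gata6 (130 TPM) came first, ahead of Col4a1 (42.8 TPM), Lama1 (39.3 TPM), Sox17 (20.3 TPM), Gata4 (12.97 TPM), Pdgfra (11.9 TPM), Cubn (4.15 TPM), Sox7 (1.59 TPM) and Foxa2 (0.412 TPM). Gata6 exceeded Col4a1 in 37 of 38 twins, and Pdgfra exceeded Cubn in 31 of 38.

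Most members were barely counted at the 2-cell stage. Gata4 and Dab2 were the exceptions. Dab2 was counted in all 110 blastomeres, between 79.2 and 362 CPM with a median of 208 CPM, and Gata4 in all but 1, with a median of 41.3 CPM and a highest value of 102.2 CPM. For Gata4 the median was thus numerically higher in blastomeres than in intact (18.5 CPM) or twin blastocysts (17.6 CPM), but the tables were aligned separately and the stages were not tested against each other. Gata6 was counted in 64 blastomeres with a median of 2.65 CPM, against 187 CPM in intact and 295 CPM in twin blastocysts. Col4a1, Cubn and Lama1 were counted in 52, 49 and 49 blastomeres and had medians of 0 CPM. Pdgfra was counted in 24, Sox17 in 19, Foxa2 in 5 and Sox7 in 3 of the 110.

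**Figure D1:**
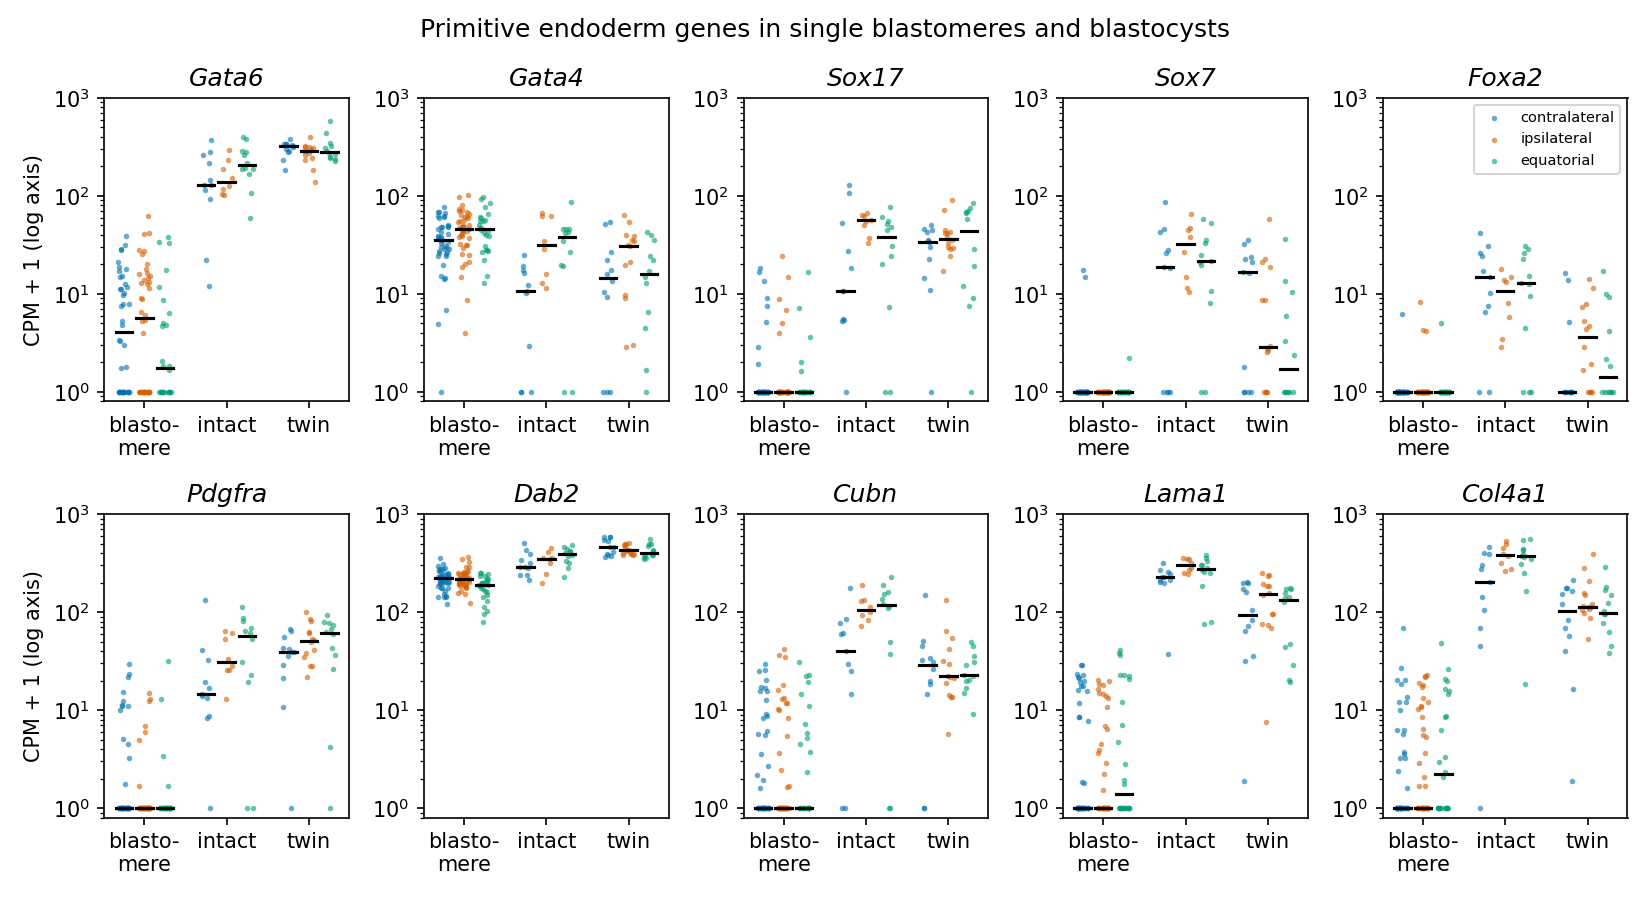
Level of each member (CPM plus 1, log axis) in single blastomeres, intact blastocysts and twin blastocysts, with a point for each library, colour for the ICSI site and a bar at the median of each site. Gata4 and Dab2 are counted at the 2-cell stage, and Sox7, Foxa2, Cubn, Lama1 and Col4a1 sit lower in twin than in intact blastocysts.

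The comparison of twin with intact blastocysts asks how members stand in embryos grown from a single blastomere. The counts of both twins were added, the embryo was the replicate (19 against 31), and edgeR's quasi-likelihood test with ICSI site as covariate was adjusted by Benjamini-Hochberg over 10689 genes. The CPM ranges of twin embryos given below are of both twins added, and they are narrower than those of single twins. Of the 10 members, 5 were lower and 2 were higher in twins at an adjusted p under 0.05. Among all genes tested, 40.5% were called, 2163 higher and 2171 lower, so a call was common in this comparison. The median log2 fold change was -0.74 over the members and 0.01 over all genes.

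Both basement membrane genes among the members were lower in twins. Lama1 was at 32.8 to 216 CPM in the 19 twin embryos (median 122.3) and at 36.7 to 383 CPM in the 31 intact blastocysts (median 257). The ranges overlapped, but the median of the intact embryos lay above the highest twin embryo. The log2 fold change of Lama1 was -1.22 ± 0.19 (SE), or 2.33-fold lower, with an adjusted p of 3.36e-07 in edgeR. Col4a1 was at 27.002 to 277 CPM in twin embryos (median 111.4) and at 0 to 556 CPM in intact ones (median 350). Its log2 fold change was -1.40 ± 0.31 (SE), with an adjusted p of 0.000241 in edgeR. The partner chain Col4a2 had the same size of difference (-1.40 ± 0.34, SE), and Lamb1, a laminin chain that assembles with Lama1, was at -1.11 ± 0.20 (SE). The third chain of that laminin, Lamc1, was not called (-0.50 ± 0.22, SE). Neither were Nid2, a basement membrane protein (0.52 ± 0.37, SE), and Sparc (-0.45 ± 0.28, SE).

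Among the endocytic genes the directions were unequal. Cubn was at 6.56 to 98.5 CPM in twin embryos (median 25.0) and at 0 to 227 CPM in intact ones (median 84.8), a log2 fold change of -1.51 ± 0.41 (SE, adjusted p = 0.00259, edgeR). Its membrane anchor Amn was also lower (-1.70 ± 0.49, SE). Lrp2, the receptor that acts beside Cubn, was higher in twins by 2.40 ± 0.24 (SE) on the log2 scale, with medians of 446 CPM in single twins and 66.3 CPM in intact blastocysts. Dab2, the adaptor, was at 371 to 565 CPM in twin embryos (median 440) and at 197 to 513 CPM in intact ones (median 349). Its log2 fold change was 0.29 ± 0.10 (SE, adjusted p = 0.0109, edgeR), a small difference with overlapping groups.

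Of the regulators, Gata6 was higher and Sox7 and Foxa2 were lower in twins. Gata6 was at 205 to 395 CPM in twin embryos (median 289) and at 11.1 to 396 CPM in intact ones (median 187), a log2 fold change of 0.61 ± 0.19 (SE, adjusted p = 0.0065, edgeR). Every twin embryo lay above the intact median. Single twins were at 136 to 576 CPM, and the lowest of them lay below that median. Sox7 was at 0 to 30.05 CPM in twin embryos (median 8.09) and at 0 to 86.7 CPM in intact ones (median 20.9), and its log2 fold change was -1.57 ± 0.50 (SE, adjusted p = 0.00911, edgeR). Foxa2, the lowest member by TPM in twins, was counted in 19 of 38 single twins and 26 of 31 intact blastocysts. It was at 0 to 11.8 CPM in twin embryos (median 2.04) and at 0 to 40.6 CPM in intact ones (median 12.02), a log2 fold change of -1.93 ± 0.55 (SE, adjusted p = 0.00349, edgeR).

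No difference was called for Gata4, Sox17 and Pdgfra. Their log2 fold changes were -0.25 ± 0.39 (SE), -0.18 ± 0.35 (SE) and 0.28 ± 0.32 (SE), with adjusted p of 0.641, 0.708 and 0.507 in edgeR, and their standard errors leave room for differences in either direction. The median of Sox17 was 34.5 CPM in twin embryos and 36.6 CPM in intact ones. The calls of all 7 members were kept on leaving out each of the 50 embryos in turn, without the intact blastocysts ICSI_Co_intact_85 and ICSI_Eq_intact_108, which hold few counts of most members, and without the 7 intact blastocysts of few genes. With counts thinned to 234099 in each blastocyst before both twins were added, Foxa2 no longer passed the filter on low counts and the other 6 were called.

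Of 23 further primitive endoderm genes, 18 were tested, and 3 were higher and 7 lower in twins, with a median log2 fold change of -0.48. The 5 with the smallest adjusted p were Lrp2, Apoe (0.95 ± 0.16, SE), which carries lipids, Lamb1, Cited1 (2.03 ± 0.43, SE), a transcriptional coregulator, and P4ha2 (-0.76 ± 0.17, SE), an enzyme that modifies collagen. Of 19 genes of Fgf signalling, 3 were higher and 5 lower, with a median of 0.13. These 8 of 19 are near the 40.5% called over all genes. Mapk3, which encodes Erk1, was at -1.53 ± 0.24 (SE), the receptor adaptor Frs2 at -1.003 ± 0.17 (SE) and the phosphatase Dusp6 at -0.88 ± 0.19 (SE), whereas the phosphatase Dusp4 was at 2.18 ± 0.38 (SE) and the adaptor Grb2 at 0.57 ± 0.15 (SE). Genes of the other lineages were called as well. Of 10 epiblast genes 7 were higher and 0 lower, with a median of 0.86, among them Pou5f1 (1.72 ± 0.15, SE), Gdf3 (2.10 ± 0.36, SE), Tdgf1 (1.80 ± 0.40, SE), Prdm14 (1.91 ± 0.55, SE) and Klf2 (0.89 ± 0.32, SE). Of 10 trophectoderm genes 1, Cdx2 (1.44 ± 0.17, SE), was higher and 7 were lower, with a median of -0.72, led by Eomes (-1.06 ± 0.10, SE), Tfap2c (-1.31 ± 0.15, SE), Elf5 (-1.29 ± 0.16, SE) and Krt7 (-1.12 ± 0.16, SE). The part of these lineages, and of the greater depth of the twins, in the values of the members was not tested. Thinning left the groups unequal in depth, since the thinned counts of both twins were added per embryo.

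**Figure D2:**
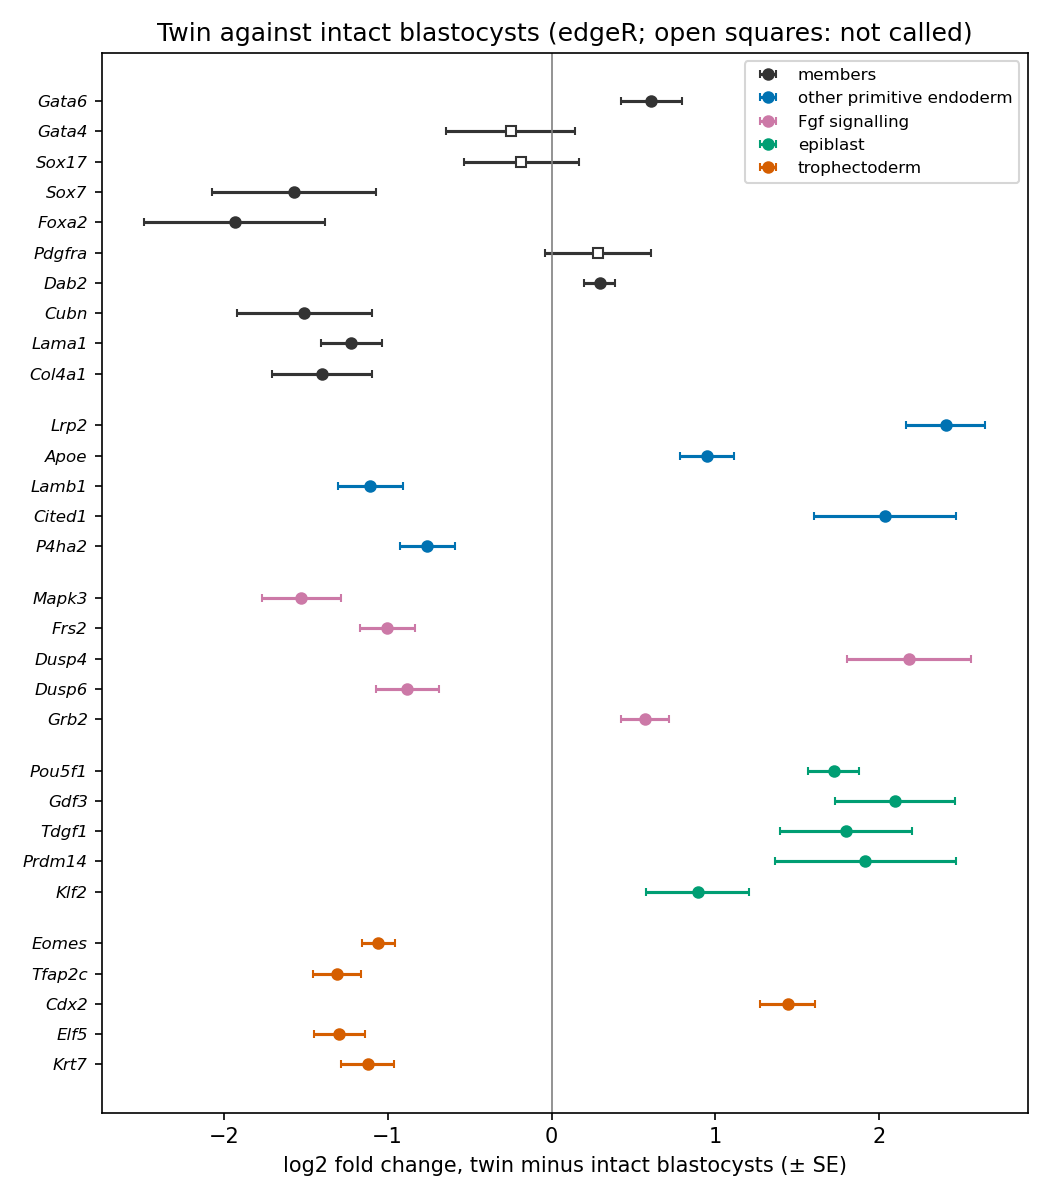
Log2 fold change of twin minus intact blastocysts with its standard error for the 10 members and for the 5 genes of smallest adjusted p in each other list, filled circles for genes called by edgeR and open squares for the others. The members spread from -1.93 (Foxa2) to 0.61 (Gata6).

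The ICSI sites were compared within each kind of embryo, to ask whether the place of sperm entry goes with the level of the members. In twin embryos none of the 10 members was called in any of 3 contrasts (edgeR, 10995 genes, 0.0% called in each of them). At an unadjusted p under 0.05 there was 1 member, Dab2, between contralateral and equatorial twins (log2 fold change 0.20 ± 0.10, SE, adjusted p = 0.74). Over all genes 728 (contralateral minus equatorial), 426 (ipsilateral minus equatorial) and 754 (contralateral minus ipsilateral) were under that unadjusted p, and DESeq2 called 6, 1 and 1 genes with 0 members. In intact blastocysts none was called either (9165 genes, 0.0% called in each of 3 contrasts), with 629, 338 and 522 genes at an unadjusted p under 0.05 in the same order. Of the members 1, 0 and 1 were under that p, which was Gata4 both times. DESeq2 called 7, 0 and 0 genes, again with 0 members.

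Gata4 was the member furthest apart between sites in intact blastocysts. It was at 0 to 23.7 CPM in the 11 contralateral ones (median 9.66), at 10.5 to 66.6 CPM in the 8 ipsilateral ones (median 30.6) and at 0 to 85.1 CPM in the 12 equatorial ones (median 37.1). The contralateral values overlapped with the low end of both other groups. The log2 fold change was -1.73 ± 0.61 (SE) from equatorial and -1.75 ± 0.65 (SE) from ipsilateral, and neither passed the adjustment over all genes (adjusted p = 0.583 and 0.822, edgeR). By rank-sum permutation on TPM, Cubn, Lama1, Gata4 and Sox17 were lower in contralateral than in ipsilateral ones (unadjusted p = 0.00453, 0.00454, 0.00663 and 0.0328). None of them passed the adjustment in that test (adjusted p of at least 0.331). Foxa2 was the only member higher in contralateral ones there (unadjusted p = 0.428). Against equatorial ones the same test had Gata4 lower in contralateral (unadjusted p = 0.00534, adjusted p = 0.839) and Sox17 higher in ipsilateral ones (0.0461 and 0.667). The share of all genes under an unadjusted p of 0.05 in this test is not given here. The blastocysts of few genes were contralateral or equatorial, and none was ipsilateral. Of the 11 contralateral blastocysts 3 had no Gata4 count, of which 2 were among those of few genes. In twin embryos Gata4 had medians of 15.2, 33.8 and 11.98 CPM after contralateral, ipsilateral and equatorial ICSI. The test of whether the effect of the site differed between twin and intact embryos called none of the members (0.0% of 10689 genes), with 0 members and 246 genes at an unadjusted p under 0.05.

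At the 2-cell stage 6 members passed the filter on low counts, Gata6, Gata4, Dab2, Lama1, Col4a1 and Cubn, and none was called between sites by edgeR with plate as covariate. Of all 13141 genes tested, 13.2% were called for contralateral minus equatorial, 6.65% for ipsilateral minus equatorial and 0.0% for contralateral minus ipsilateral ICSI. Dab2 was the only member under an unadjusted p of 0.05, with the same size in both contrasts with the equatorial group, 0.26 ± 0.10 (SE) on the log2 scale, and adjusted p of 0.069 and 0.114. Such values were common, with 3421 (contralateral minus equatorial) and 2576 (ipsilateral minus equatorial) of the 13141 genes under that unadjusted p. DESeq2 called Dab2 in the first of these contrasts (0.27, adjusted p = 0.0347), and the number of all genes it called there is not given here. The per-blastomere medians of Dab2 were 222 CPM after contralateral, 216 CPM after ipsilateral and 188 CPM after equatorial ICSI, with wide overlap.

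Twins of a pair come from 1 zygote, so their likeness in these genes could be set against that of unrelated twins of the same ICSI group. Dab2 and Gata6 varied little, with median differences within pairs of 0.20 and 0.24 on the log2 CPM scale, but unrelated twins were about as close, at 0.24 and 0.28. Gata4 differed by a median of 0.54 within pairs and 1.54 between unrelated twins, Lama1 by 0.68 and 1.23, Col4a1 by 0.54 and 0.91, and Sox17 by 0.51 and 0.79. For Pdgfra (0.84 and 0.75), Cubn (1.09 and 0.99), Foxa2 (1.18 and 1.06) and Sox7 (1.33 and 1.49) the pair made little difference to the median. Foxa2 and Sox7 had no count in 19 and 14 of 38 twins, and pairs without a count in both twins enter as a difference of 0. Their medians therefore say little about likeness. The edgeR test of embryo beyond ICSI site called none of the 9 members tested, where 0.911% of 9773 genes passed. Cubn was the only member with an unadjusted p under 0.05 (adjusted p = 0.415, edgeR). Over all 9773 genes 1086 were under that unadjusted p, so 1 of 9 members is near the share of all genes. The absence of called members depends on the filter: without the filter on low counts 8 members were called, among 927 genes in place of 89. For Lama1 the adjusted p in edgeR went from 0.841 to 8.11e-23. The number of genes tested without the filter is not given here, so the 8 members have no share over all genes beside them.

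Some pairs were far apart. Twin ICSI_Co_twin_122a had 0 CPM of Gata4, 0.899 CPM of Lama1, 0.899 CPM of Col4a1, 0 CPM of Cubn and 0 CPM of Sox7. Its sister had 53.5, 199, 162, 30.2 and 31.6 CPM of the same genes. Gata6 (229 and 334 CPM) and Pdgfra (35.1 and 38.4 CPM) were counted in both twins of that pair. Twins ICSI_Eq_twin_112a and ICSI_Co_twin_125a had no counts of Gata4, Sox17 and Pdgfra, while Gata6 was at 225 and 184 CPM and Dab2 at 500 and 585 CPM in them. Their sisters had 28.03 and 29.01 CPM of Sox17 and 61.7 and 41.9 CPM of Pdgfra. Gata4 was at 21.03 CPM in the sister of the first but at 0 CPM in both twins of the second pair. Epiblast genes were counted in these twins, with Nanog at 84.1, 84.5 and 54.8 CPM and Pou5f1 at 317, 195 and 158 CPM in ICSI_Eq_twin_112a, ICSI_Co_twin_122a and ICSI_Co_twin_125a. The sisters had, in the same order, 65.9, 57.6 and 45.1 CPM of Nanog and 196, 203 and 205 CPM of Pou5f1. Nanog was thus higher than in the sister in each of these twins, whereas Sox2 and Gdf3 were lower. In ICSI_Co_twin_122a Sox2 was at 4.50 CPM against 41.2 CPM in the sister, and Gdf3 at 0 against 27.4 CPM. In ICSI_Eq_twin_112a Sox2 was at 56.04 against 58.9 CPM and Gdf3 at 29.1 against 50.5 CPM, and in ICSI_Co_twin_125a Sox2 was at 27.4 against 46.7 CPM and Gdf3 at 28.9 against 50.8 CPM. The part of the epiblast genes in the low values of the members was not tested. In 2 ipsilateral pairs Gata4 was at 2.04 and 1.89 CPM in 1 twin and at 63.2 and 18.8 CPM in its sister. These pairs were chosen after their values were seen, and the letters a and b carry no order.

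**Figure D3:**
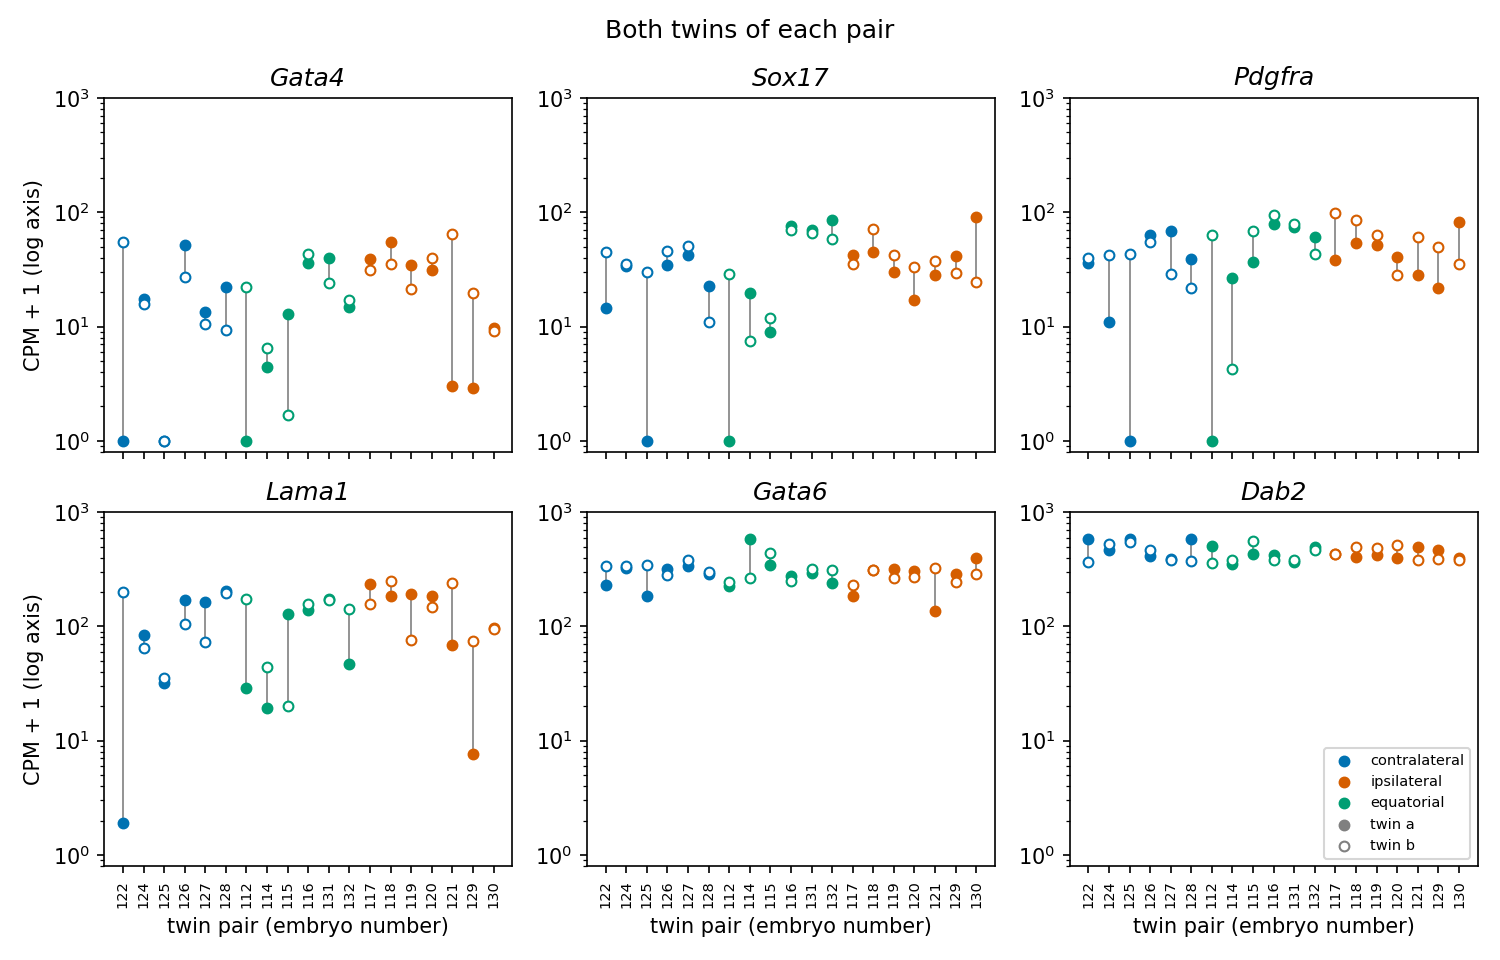
Both twins of each of 19 pairs joined by a line (CPM plus 1, log axis, twin a filled, twin b open, colour for the ICSI site) for 6 members. Gata6 and Dab2 stay within a narrow band, whereas Gata4, Sox17, Pdgfra and Lama1 fall to 0 or near it in 1 twin of some pairs.

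Within pairs several members differed in the same direction. Taking the differences of log2 CPM over the 19 pairs, with an uncentred coefficient that does not depend on which twin is called a, Gata4 and Lama1 had r = 0.89 (0.86 without the 2 pairs of largest Gata4 difference) and the same twin was higher in both genes in 14 of 19 pairs. Sox17 and Pdgfra had r = 0.84, which fell to 0.43 without the 2 pairs of largest Sox17 difference. Col4a1 and Cubn had r = 0.81 (0.72 without 2 pairs) and the same direction in 14 pairs, and Sox7 and Foxa2 had r = 0.79 (0.83 without 2 pairs). All 36 coefficients among the 9 members other than Dab2 were positive, with a median of 0.44. Their direction counts were less uniform, from 6 of 19 pairs (Sox17 with Foxa2) and 7 (Gata6 with Gata4, Sox17 with Sox7 and Sox17 with Lama1) to 15 (Gata4 with Cubn). Pairs in which either gene had no count in both twins, as happened for Foxa2, Sox7 and Gata4, could not count as the same direction. The coefficients of Dab2 with the other 9 members were all negative. They were -0.70 with Lama1, -0.68 with Gata4 and -0.60 with Col4a1 (-0.68, -0.47 and -0.54 without 2 pairs), and the same twin was higher in 6 of 19 pairs for each of these. With Sox17 and Pdgfra they were -0.20 and -0.23, which turned to 0.13 and 0.06 without 2 pairs, and the same twin was higher in 12 and 9 pairs. The coefficients are descriptions, since all CPM of a library share its total.

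Across the 19 twin embryos, with both twins added, Lama1 and Col4a1 had r = 0.86 (Spearman's rho 0.89), Gata4 had r = 0.82 with Col4a1 and 0.81 with Lama1, and Pdgfra had r = 0.79 with Col4a1. The highest of these, Lama1 with Col4a1, was 0.74 without the 2 embryos farthest from the median of Lama1. The coefficients of Gata6 with the other 9 members lay between -0.27 (Cubn) and 0.05 (Foxa2), or between -0.33 (Dab2) and 0.23 (Sox7) without the 2 farthest embryos. Those of Dab2 lay between -0.50 (Foxa2) and 0.01 (Sox7). Of the 45 coefficients 30 were positive and their median was 0.49, or 0.32 without the 2 farthest embryos.

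Across the 31 intact blastocysts 37 of 45 coefficients were positive, with a median of 0.36. The highest were those of Lama1 with Col4a1 (r = 0.78, rho = 0.53), Col4a1 with Cubn (r = 0.77, rho = 0.60), Pdgfra with Col4a1 (r = 0.69, rho = 0.55) and Pdgfra with Cubn (r = 0.62, rho = 0.57). The first of these rests on 2 samples, since without the 2 blastocysts farthest from the median of Lama1 it was 0.18. The others were 0.65, 0.73 and 0.59 without the 2 blastocysts farthest in their first gene. Pdgfra had no count in 3 intact blastocysts, so at least 1 of these stayed in for 0.73 and 0.59. These values therefore do not show what the coefficients of Pdgfra are without all 3. Gata6 had r = 0.51 with Gata4, which fell to 0.25 in the same way.

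Blastocysts ICSI_Co_intact_85 and ICSI_Eq_intact_108 were the lowest in most members. Gata4, Sox17, Sox7, Foxa2, Pdgfra and Cubn had no count in either of them. Col4a1 was at 0 and 17.4 CPM and Lama1 at 36.7 and 74.9 CPM, but Gata6 was at 113 and 58.5 CPM and Dab2 at 513 and 415 CPM. The epiblast genes Sox2 and Gdf3 had no count in them, nor in ICSI_Co_intact_83 and ICSI_Co_intact_88. Nanog was at 49.4 and 7.18 CPM, Pou5f1 at 74.9 and 55.4 CPM, against an intact median of 55.5 CPM, and the trophectoderm gene Gata3 at 694 and 919 CPM. Both blastocysts passed the limit of 10000 genes.

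**Figure D4:**
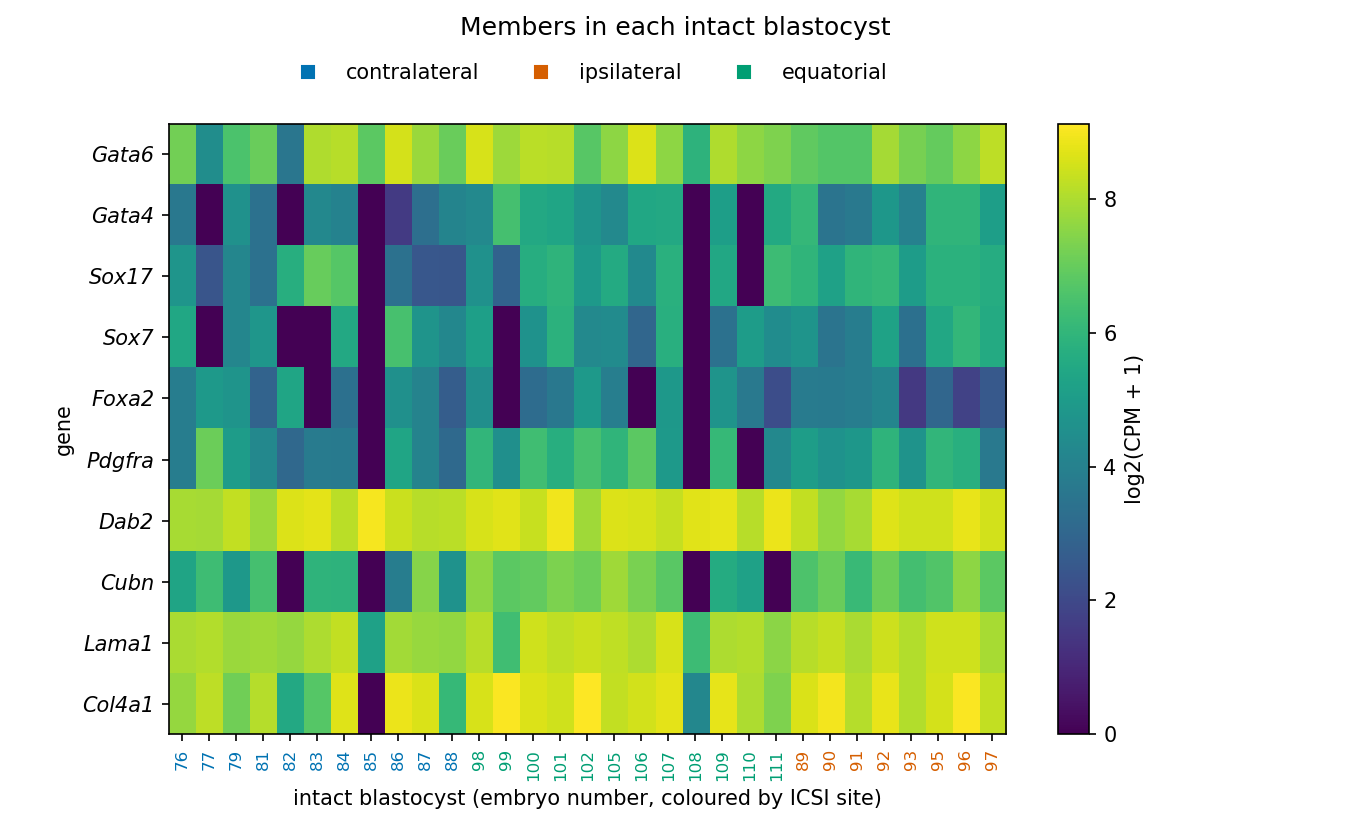
Level of each member, log2(CPM + 1), in each of 31 intact blastocysts ordered by ICSI site and embryo number. ICSI_Co_intact_85 has 7 genes at 0 and ICSI_Eq_intact_108 has 6, and Dab2 is bright in every blastocyst.

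With 1 fit across all genes for each of 3 anchors (limma-trend on log2 CPM, ICSI site as covariate, Benjamini-Hochberg over 9164 genes), positive association was called for 0.698% of genes with Gata6, 0.764% with Gata4 and 0.0218% with Sox17, and no member was called with any anchor. At an unadjusted p under 0.05 there were 3 members with Gata6, 5 with Gata4 and 4 with Sox17, all positive. Such values were common, with 1365, 1526 and 921 of the 9164 genes under that p in either direction. The nearest were Sox17 with Gata4 (0.63 ± 0.17 log2 CPM per log2 CPM of Gata4, SE, adjusted p = 0.0515) and Sox7 with Gata6 (0.81 ± 0.24, SE, adjusted p = 0.0687). The median slopes of the members on Gata6, Gata4 and Sox17 were 0.26, 0.35 and 0.24. Those of the 8 epiblast genes tested were of like size, 0.29, 0.32 and 0.21, so positive slopes were not particular to the members. Those of the 10 trophectoderm genes were -0.14, -0.10 and -0.05. The calls of members turned on few libraries. Without the 7 blastocysts of few genes, 6 members were called with Gata4 (Sox17, Cubn, Pdgfra, Col4a1, Sox7 and Lama1) and 6 with Sox17 (Cubn, Pdgfra, Col4a1, Gata4, Sox7 and Lama1), where 0.627% and 1.35% of all genes tested were called. Without those 7 and the 2 blastocysts described above, 0 members were called with any anchor, and the slopes of Cubn and Col4a1 on Gata4 were negative.

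**Figure D5:**
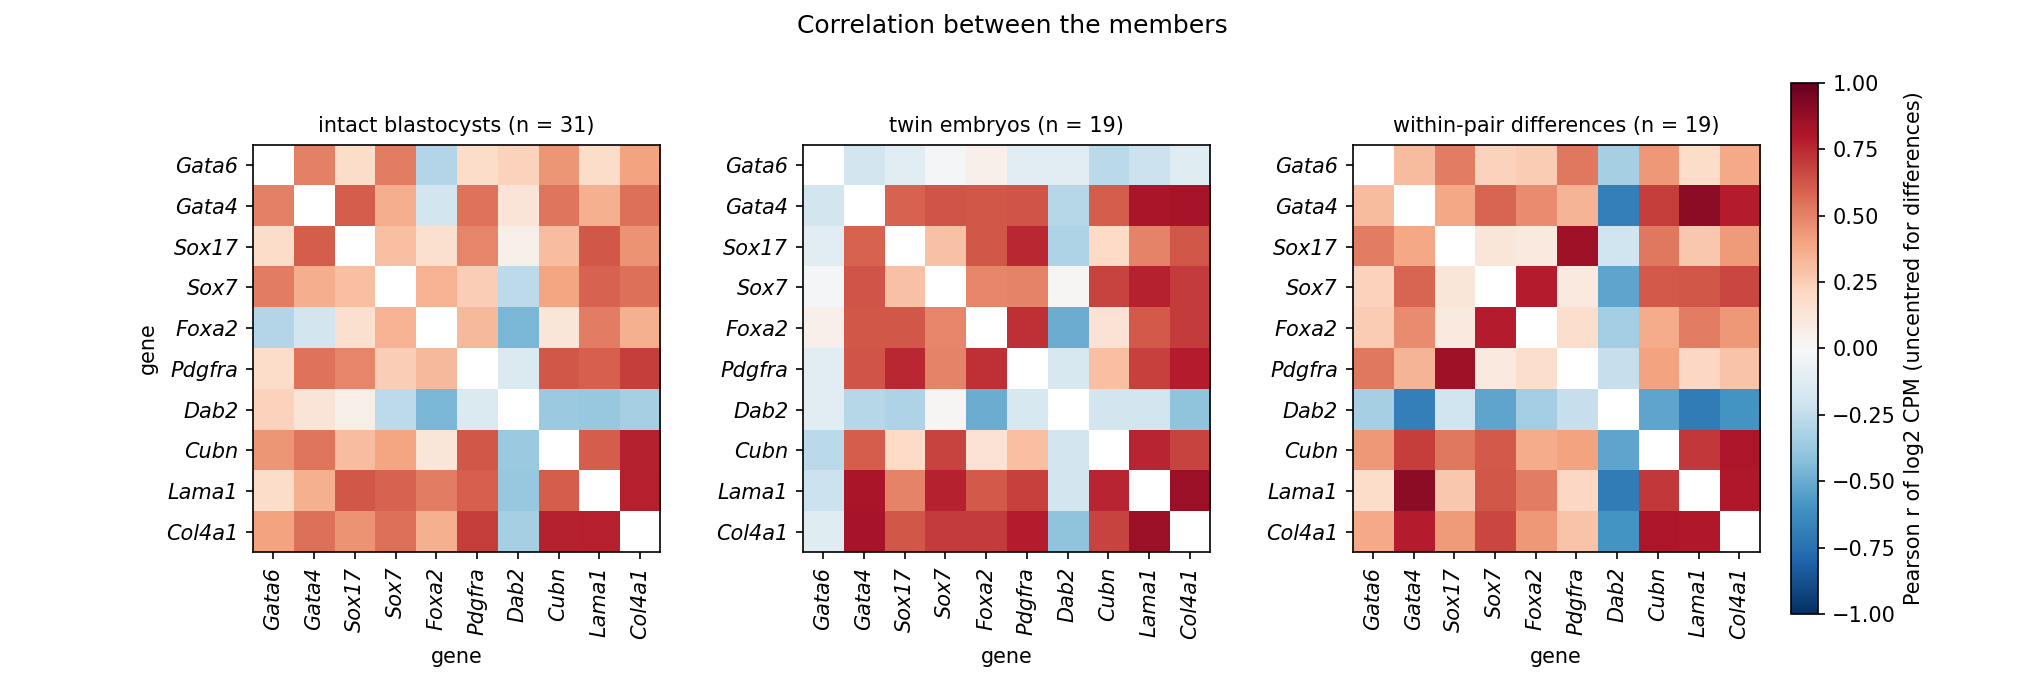
Pearson correlation of log2 CPM between the members over 31 intact blastocysts, 19 twin embryos and the differences within 19 pairs (uncentred), red for positive and blue for negative. Dab2 is blue against Lama1, Col4a1, Cubn and Foxa2 in each panel, and Gata6 lies between -0.27 and 0.05 with all others among the twin embryos.

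The genes most like the members were ranked by the correlation of their log2 CPM, over the 31 intact blastocysts, with the mean standardized log2 CPM of the 10 members. Of 9155 other genes the first 10 were Flrt3 (r = 0.85), Lamc1 (0.82), Lamb1 (0.82), Col4a2 (0.78), Sparc (0.77), Car2 (0.76), Nrg1 (0.75), Fgfr1 (0.73), B4galt6 (0.72) and Gask1b (0.72). Lamc1 and Lamb1 are laminin chains and Sparc is a protein of the extracellular matrix. Over the 19 twin embryos the same correlation was 0.97 for Lamb1, 0.93 for Flrt3, 0.87 for Lamc1, 0.80 for Sparc, 0.75 for Col4a2, 0.69 for Car2 and 0.54 for B4galt6. It was 0.28 for Fgfr1, 0.20 for Nrg1 and 0.06 for Gask1b. The ranking was not repeated without ICSI_Co_intact_85 and ICSI_Eq_intact_108, which were the lowest in most members.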

How the data were processed

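RNA of single blastomeres and single blastocysts was copied with a SMART-Seq kit and sequenced as Nextera XT libraries. The authors trimmed reads with Trimmomatic 039, aligned blastomeres and blastocysts separately with STAR 2.7.10b without strand to GRCm38 with GENCODE M23, and deposited whole-number counts per gene. No molecular identifiers were used, so reads are not independent molecules. A minimum of 9500 detected genes in both sister blastomeres and 4000 in blastocysts was applied here. CPM was computed from all counts and TPM from exon lengths in GENCODE M21, an earlier release than the one used for counting. Tests used edgeR 4.0.16 (TMM, filterByExpr, robust quasi-likelihood, adjusted p under 0.05) on counts added per embryo, or on single twins for levels shared within pairs. For edgeR, the SE was derived from the test, as the size of the log2 fold change over the square root of the quasi-likelihood F statistic. Associations used limma 3.58.1 on log2 CPM with a prior count of 2. Pair differences used the same log2 CPM. Alternatives were DESeq2 1.42.0, RLE factors, no filter, thinned counts, limma-voom on single blastocysts, rank-sum permutation on TPM, no plate term, a prior count of 0.5 and fewer embryos. Software ran in R 4.3.3 and Python 3.11.15 and was tested on simulated data. The members and lists were chosen with earlier results of these data known. All members were named, with up to 5 genes of smallest adjusted p of each other list in the twin comparison and the 10 genes most like the members. Calls of other lists at the 2-cell stage are not described. P-values measure the spread between embryos, except in the test of levels shared by the twins of a pair. There they measure the spread within pairs. Sequences are from RefSeq tables of GRCm38.p6. Embryo numbers are not shared between groups, so groups were not paired.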

Additional observations from a re-analysis of the deposited data

Results flagged for a closer look

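Among 40 groups of 6 to 8 embryos examined for a single embryo far from the rest, 2 stood out, where chance gives about 1 in 20. The ipsilateral twin embryo of ICSI_Is_twin_130a and its sister had the lowest Dab2, 388 CPM against 426 CPM in the next of 7. The contralateral twin embryo of ICSI_Co_twin_128a and its sister had the highest Cubn, 98.5 CPM against 33.6 CPM in the next of 6.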

How the results depend on the processing

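The 7 calls of members in the twin comparison held in every setting in which the gene was tested, and leaving out each of the 50 embryos in turn gave 4182 to 4529 genes with 7 members called. Between ICSI sites, DESeq2 called 6, 1 and 1 genes in twins (contralateral minus equatorial, ipsilateral minus equatorial, contralateral minus ipsilateral) and 7 in intact blastocysts (contralateral minus equatorial), and without the filter on low counts 1 gene was called in twins (ipsilateral minus equatorial). At the 2-cell stage the counts without the filter were 3930, 2603 and 1577 in the same order of contrasts, with 1 member in the last, and DESeq2 called 1 member (contralateral minus equatorial). For levels shared by the twins of a pair, 927 genes and 8 members were called without the filter. The causes were not tested. The numbers of genes tested without the filter are not given here, nor is the number of all genes that DESeq2 called at the 2-cell stage. The members called in these settings therefore have no share over all genes beside them.

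Positive association at a prior count of 0.5 was called for 1.52%, 2.35% and 0.0436% of genes with Gata6, Gata4 and Sox17, with 3 members for Gata4. Alternatives that leave out named sets of blastocysts were chosen after seeing the data. Without those of few genes, the share was 0.0106% with Gata6 and 1.35% with Sox17, with 6 members for Gata4 and 6 for Sox17. Without ICSI_Co_intact_85 and ICSI_Eq_intact_108 it was 1.27%, 6.17% and 0.907%, and without both sets 0.0% with Gata6 and 0.0% with Gata4. Thinned counts gave 0.443% with Gata6, and Gata4 did not pass the filter there, so that alternative was not run.

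The following uncalled values changed sign. Between sites, on the log2 scale, they were Gata6 in twins (-0.0721, contralateral minus equatorial) and Dab2 (-0.041) and Gata6 (-0.0274) in intact blastocysts (contralateral minus ipsilateral) on TPM. Without the blastocysts of few genes they were Foxa2 (-0.443, contralateral minus equatorial), Cubn (-0.148, ipsilateral minus equatorial), Dab2 (-0.0883) and Gata6 (-0.026, both contralateral minus ipsilateral). At the 2-cell stage (contralateral minus ipsilateral) they were Dab2 with RLE factors (0.00885), no filter (0.00326) and DESeq2 (0.00811), and Cubn without the plate term (-0.0175). Slopes on Gata6 were 0.0809 for Foxa2 without the blastocysts of few genes, -0.104 for Pdgfra and -0.0139 for Lama1 without the 2 named blastocysts, and -0.108 and -0.0158 without both sets. Slopes on Gata4 were -0.00516 for Dab2 at the lower prior count, 0.432 for Foxa2 and -0.0253 for Dab2 without the blastocysts of few genes, -0.101 for Lama1 without the 2 named blastocysts, and -0.208 for Cubn and -0.0352 for Col4a1 without both sets. Slopes on Sox17 were -0.0619 for Dab2 without the blastocysts of few genes, -0.238 for Cubn, -0.0423 for Foxa2, -0.132 for Col4a1 and -0.033 for Sox7 without the 2 named blastocysts, and -0.131 for Cubn and -0.0154 for Pdgfra without both sets. No pairing between groups was possible because embryo numbers are not shared between them. Foxa2, Sox7 and Gata4 had no count in 19, 14 and 4 of 38 twins and in 5, 6 and 5 of 31 intact blastocysts, which were sequenced less deeply, and the part of depth in these zeros was not tested.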
